A study of Danio rerio with 6 samples.

Results

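The genes described are the plasma iron carrier transferrin and the ferritins that store iron inside cells, in zebrafish embryos at 72 hours post fertilization. A list of 8 genes was searched on the array, fth1a, fthl27, fthl28, fthl30, fthl31, tfa, tfr1a and tfr1b, and a probe set counted where the platform annotation gave it a single gene symbol from that list. This found 5 probe sets, 1 each for fth1a, fthl27, fthl28, fthl30 and tfa, among 8793 genes with such a probe set in all. The gene fthl31 was present only in a probe set annotated to 6 ferritin genes, and the transferrin receptor genes tfr1a and tfr1b had no probe set in the annotation, so neither receptor was measured. The genes were listed with signals of these same arrays already known, so their levels, differences and calls are given as a description of these arrays, without a test.

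Whole embryos were profiled on 6 Affymetrix arrays, 2 for each of 3 groups, from eggs pooled over aquaria and raised at 28 °C. The ERbeta2 MO group was injected, no later than the 4 cell stage, with an antisense morpholino oligomer that stops the mRNA of the estrogen receptor ERbeta2 from being translated. The coMO group received a standard control morpholino, also at 15 uM, and the uninjected group received no injection. The labels name no strain, sex or allele, and call the arrays of a group biological replicates. A morpholino given this early spreads through the whole embryo and is diluted as cells divide, so these groups are not mutants and are not limited to a tissue.

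Iron circulates bound to transferrin, which the liver secretes, and enters cells when loaded transferrin binds its receptor and is taken up. Ferritin subunits assemble into a hollow shell that holds iron inside the cell, and the heavy subunit oxidizes the iron as it enters. Developing red blood cells are the main users of this iron, for heme, and zebrafish embryos that lack transferrin-a or its red cell receptor have pale blood. Ferritin and transferrin receptor are largely controlled after transcription, through iron-responsive elements in their mRNAs, so an mRNA level need not follow the protein.

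Each value is a MAS5 signal, a linear intensity summarised from the probes of a probe set separately for each array, with every array scaled to a trimmed mean of 500.1. Differences are between means of log2(signal + 32), an offset that makes differences of dim probe sets smaller, and are given with the standard error (SE) of the limma fit over all arrays. Signals of different probe sets cannot be set against each other. The GAPDH 3'/5' ratio, a control for intact and fully copied RNA, was 1.32 and 1.24 in uninjected embryos, 1.95 and 1.23 in coMO and 2.76 and 2.01 in ERbeta2 MO. The same ratio for actin was 3.54 and 4.26 in uninjected embryos, 21.8 and 10.8 in coMO and 8.92 and 13.5 in ERbeta2 MO, so it was higher on all injected arrays than on the uninjected ones and highest on coMO replicate 1. The GAPDH ratio was highest on both ERbeta2 MO arrays. A fit with it as a covariate was run, but cannot cleanly separate the ratio from the group. The part of RNA quality in the differences was therefore not tested.

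Transferrin-a, tfa, had the widest range of the 5 probe sets on the log2 scale with the offset (2.01), followed by fthl28 (1.79). The offset makes the range of the dim fthl28 smaller. On the linear signals fth1a spanned more than tfa, from 14928 to 23495, so this ranking rests on the scale. The tfa signal was 10731 and 11055 in uninjected embryos, 6336 and 9726 in coMO and 2728 and 2854 in ERbeta2 MO. No group overlapped another, and the order was ERbeta2 MO, coMO, uninjected. The group means were 2791 ± 89.1, 8031 ± 2397 and 10893 ± 229 (SD, n = 2 each). The level in ERbeta2 MO was 2.79-fold lower than in coMO (difference -1.48, SE 0.23) and 3.87-fold lower than in uninjected embryos (-1.95, SE 0.23). Among all 11626 probe sets tested, 98.4% and 98.1% had a smaller difference in these comparisons. Between coMO and uninjected embryos the difference was -0.47 (SE 0.23), and it was -0.16 without coMO replicate 1 and -0.78 without coMO replicate 2, so its size rested on which control array was kept.

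Further probe sets carried tfa together with gstr, a glutathione transferase gene, and gstr had no probe set of its own. The brighter of them gave 12648 and 14808 in uninjected embryos, 7064 and 13332 in coMO and 3115 and 3898 in ERbeta2 MO. Its differences were -1.47 from coMO and -1.96 from uninjected embryos, close to those of the tfa probe set. Here the coMO and uninjected arrays overlapped. The dimmer one gave 961 and 773 in uninjected embryos, 420 and 541 in coMO and 287 and 242 in ERbeta2 MO. Its difference from uninjected embryos was -1.60 for ERbeta2 MO and -0.81 for coMO, with no overlap between any groups. Between ERbeta2 MO and coMO it was -0.78, smaller than for the tfa probe set (-1.48), and did not pass (adjusted p = 0.112, limma). These probe sets cannot separate the 2 genes, and they share a symbol with the tfa probe set, so they are not independent of it.

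**Figure D1:**
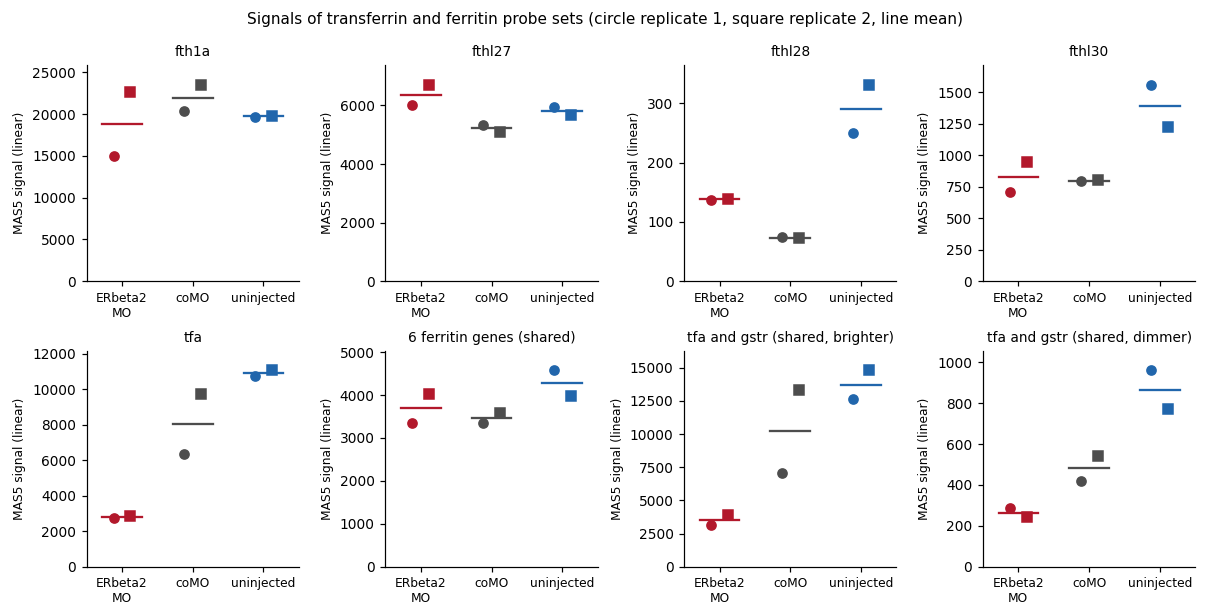
MAS5 signal (linear axis from 0) of the 5 probe sets with a single gene symbol and of 3 probe sets shared between genes, in ERbeta2 MO, coMO and uninjected embryos. Circles are replicate 1, squares replicate 2 and lines the mean of 2 arrays; tfa is lowest on both ERbeta2 MO arrays (2728 and 2854), fthl28 is lowest on both coMO arrays (74.4 and 73.1), fthl27 is highest on both ERbeta2 MO arrays by a narrow margin (6005 and 6703), and for fth1a the ERbeta2 MO arrays overlap both other groups.

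Transferrin is made in the liver, and some other liver genes were lower in ERbeta2 MO while most did not pass. In whole embryos fewer cells of a type and less RNA per cell cannot be told apart. Of 10 other liver markers tested, some of whose values were known when the list was made, 3 passed as lower in ERbeta2 MO than in coMO (2.27% of all probe sets were called) and none as higher, with a median difference of -0.09 against -0.0044 over all probe sets. The 3 were fabp10a, the liver fatty acid binding protein gene (-3.04), uox, urate oxidase (-2.74), and hgd, an enzyme gene of tyrosine breakdown (-1.90). The fibrinogen chain genes fga, fgb and fgg, which like tfa encode secreted plasma proteins of the liver, had differences of -0.06, 0.13 and -0.12 between these groups and did not pass. The apolipoprotein genes apoa2 (-0.51) and apoba (0.21) did not pass either. Nor did cp (0.62) and c3a.1 (0.59), which rose most among the 10. Against uninjected embryos 4 of the 10 passed as lower (18.4% of all probe sets were called), the same 3 (-3.83, -3.48 and -2.49) and fgg (-1.12, adjusted p = 0.0441, limma), with a median of -0.92 against 0.03.

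The summed signal of these 10 markers was 37109 and 37658 in uninjected embryos, 19229 and 33990 in coMO and 22843 and 15496 in ERbeta2 MO. Within coMO, replicate 1 had the lower marker sum and the lower tfa signal. Within ERbeta2 MO, replicate 2 had the lower marker sum and the higher tfa signal. On coMO replicate 1 and ERbeta2 MO replicate 1 the sums were 19229 and 22843, and the tfa signals 6336 and 2728. The apolipoprotein gene apoa2 made up most of each sum, with 13451 and 15837 on these arrays. The sum therefore mainly follows 1 gene, and how it relates to tfa was not tested. The 3 markers called against coMO were named for being lower in ERbeta2 MO. Their order on the injected arrays follows largely from that pick and adds no evidence on tfa. The fabp10a signal was 45.0 and 141 in ERbeta2 MO and 766 and 1098 in coMO. These values were 53.5 and 146 against 694 and 908 for uox, and 94.7 and 109 against 392 and 555 for hgd. The 7 markers not called overlapped between ERbeta2 MO and coMO, where 48% of all tested probe sets did not overlap. Being picked as not called favours overlap, so this split is no result about liver genes. No liver marker was listed at 0. The summed signal of 7 yolk syncytial layer markers, genes of the lipid-exporting layer around the yolk, ranged from 20234 to 33267 in ERbeta2 MO, 20666 to 43406 in coMO and 54680 to 58570 in uninjected embryos. Of the 7 tested, only the lipid transfer gene mttp passed as lower in ERbeta2 MO against coMO (-1.08), where 2.27% of all probe sets were called. Against uninjected embryos 4 of the 7 passed as lower, where 18.4% of all probe sets were called. These were mttp (-1.27), apoc1 (-1.17), apoa4b.1 (-1.50) and ttpa (-1.06). The apolipoprotein genes apoa1a (-1.72, adjusted p = 0.0551, limma), apoeb (-0.71) and apobb.1 (-0.26) did not pass. The part of these tissues in the tfa difference was not tested.

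**Figure D2:**
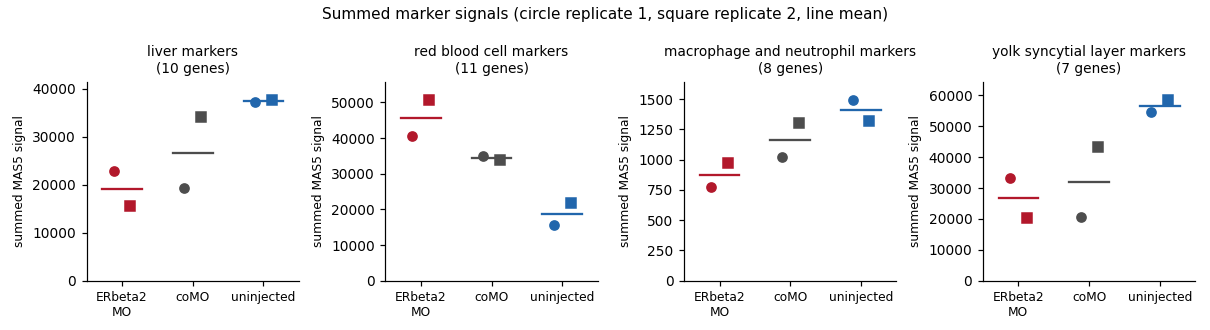
Summed MAS5 signal (linear axis from 0) of 4 marker lists on each array, with circles for replicate 1, squares for replicate 2 and lines for the mean of 2 arrays; tfa is left out of the liver list. Liver and yolk sums are highest on the uninjected arrays, and red blood cell sums are highest on the ERbeta2 MO arrays (40479 and 50730).

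The ferritin probe sets placed the groups in other orders than tfa did. The heavy chain gene fth1a gave 19669 and 19805 in uninjected embryos, 20424 and 23495 in coMO and 14928 and 22662 in ERbeta2 MO. The ERbeta2 MO arrays held the lowest and the second highest signal and overlapped both other groups. The differences of ERbeta2 MO were -0.25 from coMO and -0.10 from uninjected embryos (SE 0.23 each). Without ERbeta2 MO replicate 1 they were 0.05 and 0.20, and without replicate 2 they were -0.55 and -0.40, so their sign depended on 1 array.

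The other ferritin genes on the array belong to a group of neighbouring copies. In the RefSeq gene order of assembly GRCz12tu, fthl27, fthl28, fthl30, fthl31 and fthl29 were consecutive protein-coding genes, followed by LOC558816 and zgc:173594. The probe set annotated to several ferritin genes names 6 of these 7. This probe set and those of fthl27, fthl28 and fthl30 share 1 cluster name. Probe sets of the keratin gene krt91 and the chaperone gene hspa14 also carry it, so the name alone does not show alike sequences. Signal from 1 ferritin copy may reach the probes of another, which was not checked. The suffix of the fthl30 probe set, x_at, marks sets in which some probes may bind other transcripts. Individual assignments within this cluster are therefore uncertain.

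The fthl27 probe set read 5954 and 5664 in uninjected embryos, 5343 and 5110 in coMO and 6005 and 6703 in ERbeta2 MO. Both ERbeta2 MO arrays were above all others, but by little. The differences of ERbeta2 MO were 0.28 from coMO and 0.13 from uninjected embryos, and that of coMO from uninjected embryos was -0.15 (SE 0.17 each). These were not large beside the rest of the array, since 49.3%, 17.5% and 33.3% of tested probe sets had a smaller difference.

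The fthl28 probe set showed another order. It read 249 and 331 in uninjected embryos, 74.4 and 73.1 in coMO and 138 and 139 in ERbeta2 MO. The 3 groups did not overlap, and coMO, not ERbeta2 MO, was lowest. The means were 138 ± 0.919, 73.8 ± 0.900 and 290 ± 58.0 (SD, n = 2 each). The coMO level was 3.02-fold lower than the uninjected level (-1.60, SE 0.22), and 99.6% of tested probe sets differed less in this comparison. The ERbeta2 MO level was 1.88-fold lower than in uninjected embryos (-0.91) and 1.61-fold higher than in coMO (0.69, SE 0.22 each). The size depended on the pseudocount: the coMO difference was -1.95 with a pseudocount of 1 and -1.16 with 100.

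The fthl30 probe set separated both injected groups from the uninjected one. It read 1558 and 1224 in uninjected embryos, 795 and 801 in coMO and 708 and 947 in ERbeta2 MO. The injected groups overlapped each other (difference 0.04, SE 0.22). The level was 1.66-fold lower than uninjected in ERbeta2 MO (-0.73) and 1.70-fold lower in coMO (-0.77, SE 0.22 each).

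The probe set annotated to 6 ferritin genes, the only one that names fthl31, read 4576 and 3981 in uninjected embryos, 3360 and 3589 in coMO and 3358 and 4028 in ERbeta2 MO. The ERbeta2 MO arrays overlapped both other groups, with differences of 0.08 from coMO and -0.21 from uninjected embryos. Its coMO difference from uninjected embryos was -0.30 (SE 0.19). This lay between that of fthl27 (-0.15) and those of fthl30 (-0.77) and fthl28 (-1.60), which the probe set also names. Nothing can be said of fthl31 alone.

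Probe sets of other genes carry the same cluster name. Those annotated to the keratin gene krt91 make up 2 of them, and one read 10517 and 8476 in uninjected embryos, 6076 and 7899 in coMO and 3053 and 1020 in ERbeta2 MO. It passed as lower in ERbeta2 MO than in uninjected embryos, with a log2 difference of -2.39 (adjusted p = 0.0108, limma), as did the second krt91 probe set with -2.23 (adjusted p = 0.0172). The chaperone gene hspa14 read 877 and 535 in ERbeta2 MO, above 392 to 496 on the other arrays, and did not pass.

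**Figure D3:**
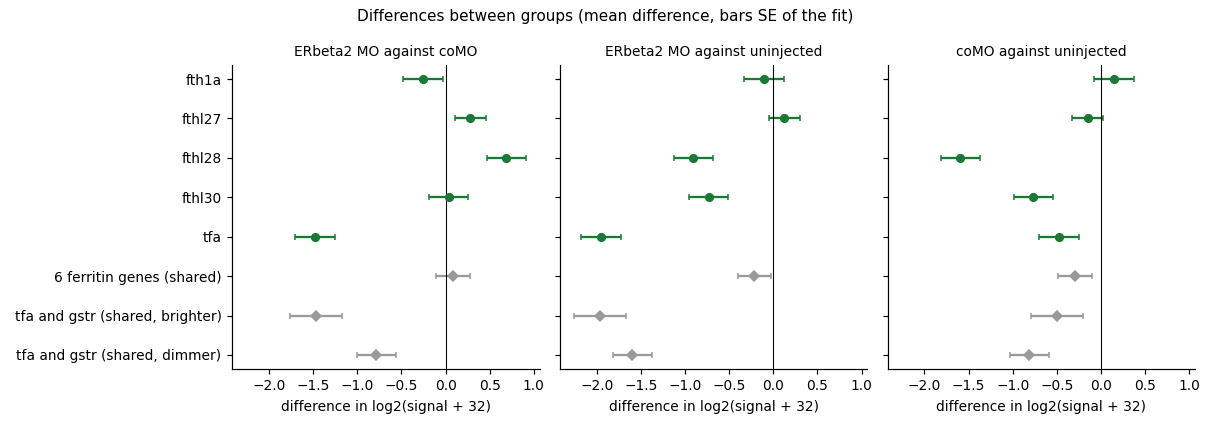
Differences in log2(signal + 32) between groups for the 5 probe sets with a single gene symbol (circles) and 3 probe sets shared between genes (diamonds), with bars for the SE of the fit over all 6 arrays. The tfa point lies at -1.48 and -1.95 in the ERbeta2 MO comparisons, and fthl28 lies farthest from 0 between coMO and uninjected embryos (-1.60).

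Calls in the fit over all probe sets, at a Benjamini-Hochberg adjusted p of 0.05, describe the values that the genes were listed with and add no evidence to them. Against coMO, 1 of the 5 probe sets was called in ERbeta2 MO, tfa as lower, where 2.27% of all tested probe sets were called. Against uninjected embryos 2 of 5 were called, tfa and fthl28 as lower, where the background was 18.4%. Between coMO and uninjected embryos 0 of 5 were called, and the background was 0%. In that comparison 0 of 11626 probe sets passed limma, while 1442 had an unadjusted p under 0.05. The groups did not overlap for 3, 4 and 5 of the 5 probe sets, against backgrounds of 48%, 63.5% and 55%. The median difference of the 5 was 0.04, -0.73 and -0.47, against -0.0044, 0.03 and 0.02 over all tested probe sets.

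These calls depended on single arrays and on the settings. The tfa call against coMO was lost without coMO replicate 1 (-1.79), without coMO replicate 2 (-1.17) and without either uninjected replicate, where the difference itself cannot change. It was also lost with only the 4 arrays compared (adjusted p = 0.0742, limma), as was the fthl28 call against uninjected embryos (adjusted p = 0.0506). Against uninjected embryos it was lost without uninjected replicate 1 (-1.97). The fthl28 call was lost without uninjected replicate 1 (-1.09), without uninjected replicate 2 (-0.72) and without either coMO replicate (-0.91). Other calls were gained. The fthl30 difference from uninjected embryos in ERbeta2 MO passed with a pseudocount of 100 (adjusted p = 0.0497, limma), with quantile normalization (adjusted p = 0.0385) and without ERbeta2 MO replicate 2 (adjusted p = 0.0136). The fthl28 difference between coMO and uninjected embryos passed without ERbeta2 MO replicate 2 (adjusted p = 0.0486). When the GAPDH ratio was added to the model as a covariate, no probe set on the array was called, and the tfa differences were -1.07 and -1.36.

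In the authors' deposited table for ERbeta2 MO and coMO, which lists only fold ratios of at least 2 or at most 0.5, the ratio was 0.398 for tfa and 2.031 for fthl28. The authors' deposited table for ERbeta2 MO and uninjected embryos gives 0.31 for tfa. The authors' deposited table for coMO and uninjected embryos gives 0.268 for fthl28. The other ferritin genes with a single symbol are in none of these lists.

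Other genes of iron handling were taken from 8 lists by role, of which the ferritin list had no further gene on the array. Of 79 genes beside those above, 36 had a single-symbol probe set and 32 were bright enough to be tested. Between ERbeta2 MO and coMO 0 of 32 passed limma (background 2.27%), and 2 had an unadjusted p under 0.05. Over all tested probe sets 20.3% had such a p in this comparison. Between ERbeta2 MO and uninjected embryos 6 of 32 passed, 2 higher and 4 lower, which is 18.8% against a background of 18.4%, a share near that of the whole array. Between coMO and uninjected embryos 0 of 32 passed (background 0%), and 3 had an unadjusted p under 0.05, against 12.4% of all tested probe sets. The median differences were -0.02, -0.14 and -0.18. With each array centred on its median, the median over all probe sets in the second comparison rose from 0.03 to 0.15, and calls split into 1495 higher and 998 lower in place of 960 and 1177. There 5 of the 32 then passed, since glrx5 had an adjusted p of 0.05.

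Iron export and its hormonal control came from 4 genes on the array. The exporter ferroportin, slc40a1, read 1003 and 883 in uninjected embryos, 863 and 838 in coMO and 670 and 897 in ERbeta2 MO, and did not pass in any comparison. The gene neo1a, for neogenin, a receptor that in mammals also acts with hemojuvelin upstream of the iron hormone hepcidin, read 931 and 1232 in uninjected embryos, 1448 and 1299 in coMO and 2234 and 2524 in ERbeta2 MO. It rose by 1.13 in ERbeta2 MO against uninjected embryos (SE 0.21, adjusted p = 0.0117, limma). Its difference from coMO was 0.78 (adjusted p = 0.095), with no overlap. The plasma copper protein and ferroxidase gene cp, also a liver marker, overlapped between all groups, and its largest difference was -0.69 between coMO and uninjected embryos. The gene bmp6, an inducer of hepcidin in mammals, was too dim to be tested, at 55.5 and 58.5 in uninjected embryos, 35.8 and 38.7 in coMO and 1.59 and 10.7 in ERbeta2 MO.

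Genes of the transferrin cycle other than tfa did not pass. The endosomal iron transporter slc11a2 read 685 and 625 in uninjected embryos, 559 and 544 in coMO and 1100 and 613 in ERbeta2 MO, where 1 ERbeta2 MO array stood above the rest. The metalloreductase gene steap4 had the largest difference, -0.70 between ERbeta2 MO and uninjected embryos (adjusted p = 0.0949). The sorting nexin gene snx3, needed to recycle the receptor, had differences between -0.14 and -0.04.

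Genes that sense cellular iron or turn ferritin over gave 0 of 5 calls in each comparison (backgrounds 2.27%, 18.4% and 0% in the order above). They included ncoa4, the receptor that delivers ferritin to lysosomes (0.18 against coMO and 0.21 against uninjected embryos), and fbxl5, an iron-sensing ubiquitin ligase subunit (-0.16 and -0.01). The largest difference was that of aco1, at -0.65 between ERbeta2 MO and uninjected embryos (adjusted p = 0.148, limma). This cytosolic aconitase acts as iron regulatory protein when it lacks its iron-sulfur cluster. The authors' deposited ratio for aco1 in this comparison was 0.47, against a fold of 0.64 here.

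Among genes for heme breakdown and transport, 1 of 4 passed in ERbeta2 MO against uninjected embryos (background 18.4%). This was hp, haptoglobin, which captures free hemoglobin in plasma and is made by the liver. It read 580 and 620 in uninjected embryos, 202 and 383 in coMO and 245 and 84.2 in ERbeta2 MO. It fell by 1.82 against uninjected embryos (SE 0.42, adjusted p = 0.0224, limma) and overlapped with coMO (-0.80). The size depended on the ERbeta2 MO arrays. Without replicate 1 the differences were -2.44 from uninjected embryos and -1.42 from coMO, which then passed (adjusted p = 0.0409, limma), and without replicate 2 they were -1.19 and -0.17. Without coMO replicate 1 the difference from coMO was -1.21, and without coMO replicate 2 it was -0.38. The biliverdin reductase gene blvrb had the largest difference among the rest, 0.39 (adjusted p = 0.227).

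In the list for mitochondrial iron and iron-sulfur clusters 3 of 9 passed as lower in ERbeta2 MO against uninjected embryos, where 18.4% of all probe sets were called, and the list median was -0.21 against 0.03. The ferredoxin gene fdx1, an electron carrier of mitochondria, read 1739 and 1639 in uninjected embryos, 1280 and 1571 in coMO and 801 and 672 in ERbeta2 MO. It fell by 1.17 against uninjected embryos (SE 0.20, adjusted p = 0.00917), and its difference from coMO was -0.92 (adjusted p = 0.0573). The cysteine desulfurase gene nfs1, which supplies the sulfur, fell by 1.03 (SE 0.26, adjusted p = 0.0297). The glutaredoxin gene glrx5, whose loss in zebrafish blocks heme synthesis, fell by 0.74 (SE 0.19, adjusted p = 0.0316). Its call was also lost with only the 4 arrays compared and without either coMO replicate. The related ferredoxin gene fdx2 had a difference of 0.47 that did not pass (adjusted p = 0.142, limma). The authors' deposited ratio for fdx2 in this comparison was larger, 2.283 against a fold of 1.38 here.

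In heme synthesis 1 of 6 genes passed in ERbeta2 MO against uninjected embryos (background 18.4%), and 5 of the 6 differences were negative. The gene alas2, for the enzyme that starts heme synthesis in red cells, read 135 and 160 in uninjected embryos, 392 and 348 in coMO and 412 and 623 in ERbeta2 MO. It rose by 1.59 against uninjected embryos (SE 0.24, adjusted p = 0.00698), while coMO differed from uninjected embryos by 1.17 (adjusted p = 0.322) without overlap. The summed signal of 11 red blood cell markers, alas2 among them, was 15588 and 21663 in uninjected embryos, 35098 and 33853 in coMO and 40479 and 50730 in ERbeta2 MO. The embryonic globin gene hbae3 made up most of this sum. Of 9 of these markers tested, 3 passed as higher in ERbeta2 MO than in coMO (background 2.27%), the globin genes hbbe3 (4.56) and hbaa1 (1.28) and the red cell anion exchanger gene slc4a1a (2.45). Against uninjected embryos 6 of 9 passed as higher (background 18.4%), which were alas2, hbbe3 (6.26), slc4a1a (2.92), hbae3 (1.20), hbaa1 (1.06) and hbbe2 (1.02). The hbbe3 signal was 10.6 and 8.55 in uninjected embryos, 213 and 42.2 in coMO and 3716 and 2678 in ERbeta2 MO. Some globin genes are close copies of one another, so the assignment to single genes is uncertain. The part of red blood cells in the alas2 difference was not tested. The uroporphyrinogen decarboxylase gene urod had a difference of -0.69 (adjusted p = 0.0884), the largest that did not pass.

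Of the other metal transporters, the zinc transporter gene slc39a7 had the largest difference, in ERbeta2 MO against uninjected embryos. Its brighter probe set did not pass there (-0.88, adjusted p = 0.0864, limma). The other slc39a7 probe set passed as lower in this comparison, with a log2 difference of -1.42 (adjusted p = 0.0249), so the probe sets disagreed on the call. Neither passed against coMO (-0.53 and -0.92, adjusted p = 0.39 and 0.186, limma). Macrophage and neutrophil markers, counted because these cells recycle iron, had a summed signal of 1494 and 1321 in uninjected embryos, 1022 and 1307 in coMO and 775 and 974 in ERbeta2 MO. Of 5 tested, only coro1a passed, as lower in ERbeta2 MO against uninjected embryos (-0.80, adjusted p = 0.0321, background 18.4%). The lysozyme gene lyz (-0.68), lcp1 (-0.88), mpx (0.0005) and spi1b (-0.06) did not pass, and lyz made up most of the sum. None of the 5 passed between ERbeta2 MO and coMO (background 2.27%), where coro1a was higher in ERbeta2 MO (0.18).

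The calls of iron genes against uninjected embryos also rested on the uninjected arrays. Fewer of the 32 passed without either uninjected replicate and more passed without either ERbeta2 MO replicate. The share called over all tested probe sets fell and rose in the same way, so this was not particular to iron genes. These fits leave 1 array in a group. The neo1a difference was 0.93 without uninjected replicate 1 and 1.32 without uninjected replicate 2. For alas2 it was 1.87 without ERbeta2 MO replicate 1 and 1.31 without ERbeta2 MO replicate 2.

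**Figure D4:**
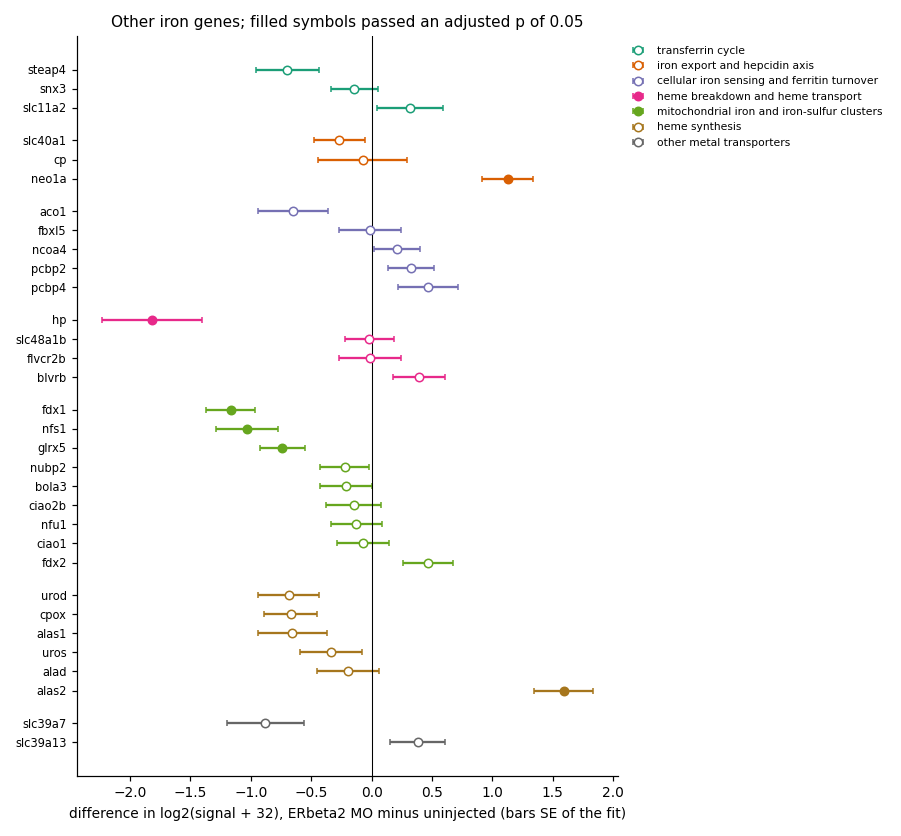
Difference in log2(signal + 32), ERbeta2 MO minus uninjected, for the 32 other iron genes tested, grouped by role, with bars for the SE of the fit over all 6 arrays. Filled symbols passed an adjusted p of 0.05: neo1a (1.13) and alas2 (1.59) as higher, and hp (-1.82), fdx1 (-1.17), nfs1 (-1.03) and glrx5 (-0.74) as lower.

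Genes with array profiles most like those of the listed genes were found by the root mean square difference between centred log2 profiles over the 6 arrays, among tested probe sets with 1 symbol. This was done where a profile spanned more than 1 on the log2 scale, which left out fth1a (0.65) and fthl27 (0.39). Nearest to tfa were eno1b, an enolase gene (0.088), and sult2st2, a sulfotransferase gene (0.118). The eno1b signal was 752 and 800 in uninjected embryos, 405 and 711 in coMO and 177 and 211 in ERbeta2 MO. Nearest to fthl30 were gpn1 and hprt1 (0.086 each), and nearest to fthl28 were capn2l, a calpain gene (0.275), and ccn1, a matrix protein gene (0.292). With 6 arrays, closeness of this kind is a description only.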

How the data were processed

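The authors deposited 1 MAS5 signal per probe set and array, an intensity on a linear scale, from biotin-labelled total RNA, made with MAS5 per the submitters' processing notes (no version given). The authors' 3 deposited tables of fold ratios do not say how replicates were combined, and the direction of each was taken from the value table. No detection calls were used, and precision is limited by having 2 arrays a group. Platform symbols were brought up to date with the RefSeq genes of GRCz12tu. Of 15617 probe sets, 115 controls and the dimmest 25% were left out, which left 11626, and log2(signal + 32) was fitted with lmFit and eBayes with an intensity trend (limma 3.58.1, R 4.3.3) in 1 model of 3 groups, with 3 residual degrees of freedom and 5.31 from the prior. P-values are two-sided and were adjusted over all tested probe sets by Benjamini-Hochberg. With 2 arrays a group an exact permutation test could reach only p = 0.333. The tests reflect spread between the biological replicates of a group and no wider one. The script was tested on simulated data.

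The genes, lists and rules were chosen with earlier results of these data known. The brightest probe set stands for a gene of the lists. Named beside the 5 were each called iron gene, the largest difference not called in each list, called markers with up to 3 of highest signal in each marker list, and the 2 genes most like each. The genes bmp6, slc40a1, slc11a2, snx3, ncoa4, fbxl5, fga, fgb, c3a.1, apoeb, mpx, spi1b, krt91 and hspa14 were named after their values were seen. Alternatives were other pseudocounts, filters, scalings and priors, only the 4 arrays compared, the replicate number as a block, the GAPDH 3'/5' ratio as a covariate, and each array left out in turn.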

Additional observations from a re-analysis of the deposited data

How the results depend on the processing

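Of 237 recomputed differences of the 5 transferrin and ferritin probe sets, 209 stayed within 1 residual SD and 28 moved by more, and no called one changed sign. The dim fthl28 could not be fitted in 1 alternative, since it was left out with the dimmest 50%. The 6 iron genes called in any comparison kept their side of the threshold in 263 of 288 recomputations, lost a call in 22 and gained one in 3. These recomputations covered all 3 comparisons, but the genes were called only between ERbeta2 MO and uninjected embryos. All 22 losses fell there, and calls held in 8 (glrx5) to 14 (alas2) of 16 alternatives. In the other comparisons, keeping a side meant staying uncalled. With the GAPDH 3'/5' ratio as a covariate, which leaves fewer residual degrees of freedom, 0 iron genes passed between ERbeta2 MO and uninjected embryos in place of 6, although alas2 and neo1a then differed by 1.82 and 1.14. Leaving out 1 array gave 0 to 3 passing iron genes between ERbeta2 MO and coMO, 0 to 9 between ERbeta2 MO and uninjected embryos, and 0 in each case between coMO and uninjected embryos. Over all probe sets, the 264 calls between ERbeta2 MO and coMO became 129 with no filter, 141 with a replicate block, 59 with only the 4 arrays compared, 0 with the covariate and 0 to 1606 with 1 array left out. The 2137 calls between ERbeta2 MO and uninjected embryos became 0 with the covariate and 61 to 3148 with 1 array left out. Between coMO and uninjected embryos the 0 calls became 2 with only the 4 arrays compared and up to 9 with 1 array left out. The cause was not tested. Same-numbered arrays did not deviate together in all 3 pairs of groups (correlations of -0.0849, 0.111 and -0.0959), so the numbers were not taken as pairs; with a replicate block 6 iron genes passed, and glrx5 had an adjusted p of 0.0536.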
